A study of Mus musculus with 32 samples.

Results

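Integrins are cell surface receptors made of 1 alpha and 1 beta chain. Here 10 mouse integrin genes are described: Itgal, Itgb2, Itgam, Itgae, Itgb7, Itga4, Itgb1, Itga7, Itga2 and Itgb3. The members are the rows with these symbols in both RNA-seq tables, 10 of 24475 genes listed, and every ChIP-seq peak whose annotated gene is one of them, 286 of 215616 peaks in 8 lists. The study used Scid.adh.2c2, a mouse line with features of pro-T cells, the T cell precursors of the thymus, and ILC2/b6, a mouse line of type 2 innate lymphoid cells (ILC2). The latter was kept in medium supplemented with the cytokines IL-33, IL-7 and IL-2 at 10 ng/ml. RNA was sequenced from cells of each line transduced with a vector carrying a control guide RNA and CFP, or with the same kind of vector carrying a guide against Bcl11b, with 2 libraries per group and 8 in all. Bcl11b, GATA3, Runx1 and Runx3 were mapped by ChIP-seq in both lines, with no guide named for those samples. Each line is a single line, and the labels do not say that replicates were separate cultures, so p-values measure only the spread between these libraries.

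An integrin heterodimer binds a ligand on another cell or in the matrix, and signals from inside the cell change its affinity. The beta chain largely sets the family: Itgb2 chains pair in leukocytes with Itgal, as the receptor for ICAM adhesion molecules known as LFA-1, or with Itgam, as Mac-1. Itgb7 pairs with Itga4, which binds the gut addressin MAdCAM-1, or with Itgae, which binds E-cadherin on epithelium. Itgb1 pairs with many alpha chains, among them Itga4 (binding VCAM-1 and fibronectin), Itga2 (binding collagen) and Itga7 (binding laminin, best known in muscle). Itgb3 pairs with Itgav or, in platelets, with Itga2b. Bcl11b is a DNA-binding zinc finger protein on which both T cell commitment and ILC2 identity depend.

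Promoter sequences from RefSeq (GRCm38.p6, the 250 bases before the start) were matched by symbol for 5 of the 10 members: Itgam, Itgb7, Itga4, Itgb1 and Itga2. The sequences of Itga4, Itgb1, Itga2 and Itgb7 are shown because each of these genes has a Bcl11b peak within 1 kb of its start in at least 1 line. They are not the sequences of the peaks. The Itgb7 peaks near the start lie in intron 1 at 0.8 kb, outside the window, and the Itga4 peak of ILC2/b6 also lies after the start. Capitals mark a match to the Runx core, searched as the letters TGTGGT or TGCGGT on both strands, and the GATA letters GATAA were searched in the same way.
Itga4, chr2:79255176-79255425, plus strand: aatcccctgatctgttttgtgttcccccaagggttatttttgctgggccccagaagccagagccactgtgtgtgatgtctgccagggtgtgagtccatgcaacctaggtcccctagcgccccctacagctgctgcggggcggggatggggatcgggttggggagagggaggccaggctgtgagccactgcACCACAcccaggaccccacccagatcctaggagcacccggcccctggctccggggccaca
Itgb1, chr8:128685404-128685653, plus strand: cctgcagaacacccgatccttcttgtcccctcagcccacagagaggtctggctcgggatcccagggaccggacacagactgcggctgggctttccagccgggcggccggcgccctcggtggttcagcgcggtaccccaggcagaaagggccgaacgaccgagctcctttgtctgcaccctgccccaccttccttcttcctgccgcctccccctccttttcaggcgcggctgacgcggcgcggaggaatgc
Itga2, chr13:114932101-114932350, minus strand: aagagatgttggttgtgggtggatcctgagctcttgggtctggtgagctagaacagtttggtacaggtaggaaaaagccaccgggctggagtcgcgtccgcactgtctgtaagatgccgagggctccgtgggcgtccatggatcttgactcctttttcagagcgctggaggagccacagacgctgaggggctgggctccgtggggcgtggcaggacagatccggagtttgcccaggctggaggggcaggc
Itgb7, chr15:102231936-102232185, minus strand: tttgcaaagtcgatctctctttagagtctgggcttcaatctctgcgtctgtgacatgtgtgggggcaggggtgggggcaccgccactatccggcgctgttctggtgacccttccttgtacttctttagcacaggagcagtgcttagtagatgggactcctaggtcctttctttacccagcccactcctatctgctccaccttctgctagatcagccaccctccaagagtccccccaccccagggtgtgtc
The 1 match in the 5 promoters is in Itga4, a TGTGGT on the minus strand that lies 60 to 55 bases before the start and reads ACCACA on the strand printed. Of 32851 promoters of the same length, 18.6% hold the Runx core letters and 22.6% hold GATAA. The GC content of the 5 windows was 68.0% for Itgb1, 64.0% for Itga4, 60.8% for Itga2, 56.0% for Itgb7 and 49.6% for Itgam, beside a median of 52.4% over all windows. A match is a description of letters and not a binding site.

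Each line carried the markers of its label. Scid.adh.2c2 controls had 11 of 13 pro-T markers at 1 RPKM or more, with Cd5 under 0.1 RPKM, and ILC2/b6 had 11 of 11 ILC2 markers in every group. RNA libraries held 34.7 to 43.7 M reads. Replicate libraries differed beyond sampling noise, with a chi-square per gene of 2.00 to 11.7 where counting alone gives about 1, so no pair was treated as 1 library. The guide target itself did not show as a loss of mRNA. Bcl11b stood at 47.0 and 49.5 RPKM (reads per kilobase of transcript, scaled to library size) in the Scid.adh.2c2 controls and at 47.1 and 46.8 with the guide, a log2 fold change of -0.04 ± 0.042 (SE; limma adjusted p = 0.455). In the other line it was 6.85 and 6.33 in controls and 7.04 and 7.24 with the guide (0.11 ± 0.060, limma adjusted p = 0.278). The mRNA level therefore does not check which libraries lost Bcl11b, and the guide groups are named as labelled. The effects below are log2 fold changes of RPKM plus 0.5, which understate the change of low genes, tested with limma in each line apart, with Benjamini-Hochberg adjustment over all tested genes and a gene called at adjusted p under 0.05. In bulk libraries, fewer cells that express a gene and less RNA in each cell cannot be told apart.

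The 2 lines answered the guide differently. In Scid.adh.2c2, all 7 members that passed the filter of 1 RPKM in 2 libraries rose, by 0.76 to 2.20 log2 units: Itgal, Itgb2, Itgam, Itgb7, Itga4, Itgb1 and Itgb3. Their median was 1.63 against 0.05 for all tested genes. Among the 10221 tested genes 35.1% rose and 22.7% fell. In ILC2/b6, 8 members were tested, of which Itga7 and Itgb1 rose, Itgal and Itgb3 fell, and Itgb2, Itgb7, Itga4 and Itga2 were not called. Their median was -0.04 against 0.02 for all genes, and among 10526 tested genes 8.32% rose and 6.21% fell. Itgae, Itga2 and Itga7 in Scid.adh.2c2, and Itgam and Itgae in ILC2/b6, stayed below the filter and were not tested. Marker lists of other cells moved in Scid.adh.2c2 as well. The summed RPKM of 13 pro-T markers went from 1314 and 1354 to 851 and 856. Of the 11 tested, 8 fell, Cd3g and Cd3d rose and Cd3e was not called, where 22.7% of all tested genes fell and 35.1% rose. The summed RPKM of 9 NK and ILC1 markers went from 220 and 205 to 326 and 330. At 1 RPKM or more were 4 and then 6 of them, and Eomes was under 0.1 in all 4 libraries. Of the 6 tested, 4 rose, 1 fell and 1 was not called, where 35.1% of all tested genes rose and 22.7% fell. Gzma, most of the control sum, fell from 209 and 198 RPKM to 100 and 105, and Gzmb was not called. Il2rb rose from 1.83 and 1.54 RPKM to 126 and 126. Tbx21 rose too, as did Ncr1 and Prf1, which passed the filter only through the guide libraries. For 8 mast cell markers the summed RPKM went from 23.7 and 21.5 to 63.1 and 63.3, nearly all of it Cpa3 (23.5 and 21.4 RPKM, then 62.4 and 62.7). Fcer1a, Ms4a2, Mcpt4, Tpsb2 and Cma1 were under 0.1 RPKM throughout. The summed RPKM of 11 ILC2 markers went from 270 and 295 to 178 and 178. Il2ra, also 1 of the 13 pro-T markers, went from 150 and 168 RPKM to 44.3 and 42.8, a larger fall than that of the sum. Of the 8 ILC2 markers tested, 5 rose and 3 fell, where 35.1% and 22.7% of all tested genes did. Klrg1, Arg1 and Il13 passed the filter only with the guide libraries, Il13 with controls at 2.21 and 0.816 RPKM. For 7 stromal markers the sum went from 5.53 and 5.97 to 1.46 and 1.33, nearly all of it Pdgfrb. B cell markers summed to 0.225 to 0.349 RPKM in Scid.adh.2c2 and to 4.57 to 5.03 RPKM in ILC2/b6. Their part in the integrin changes was not tested.

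**Figure D1:**
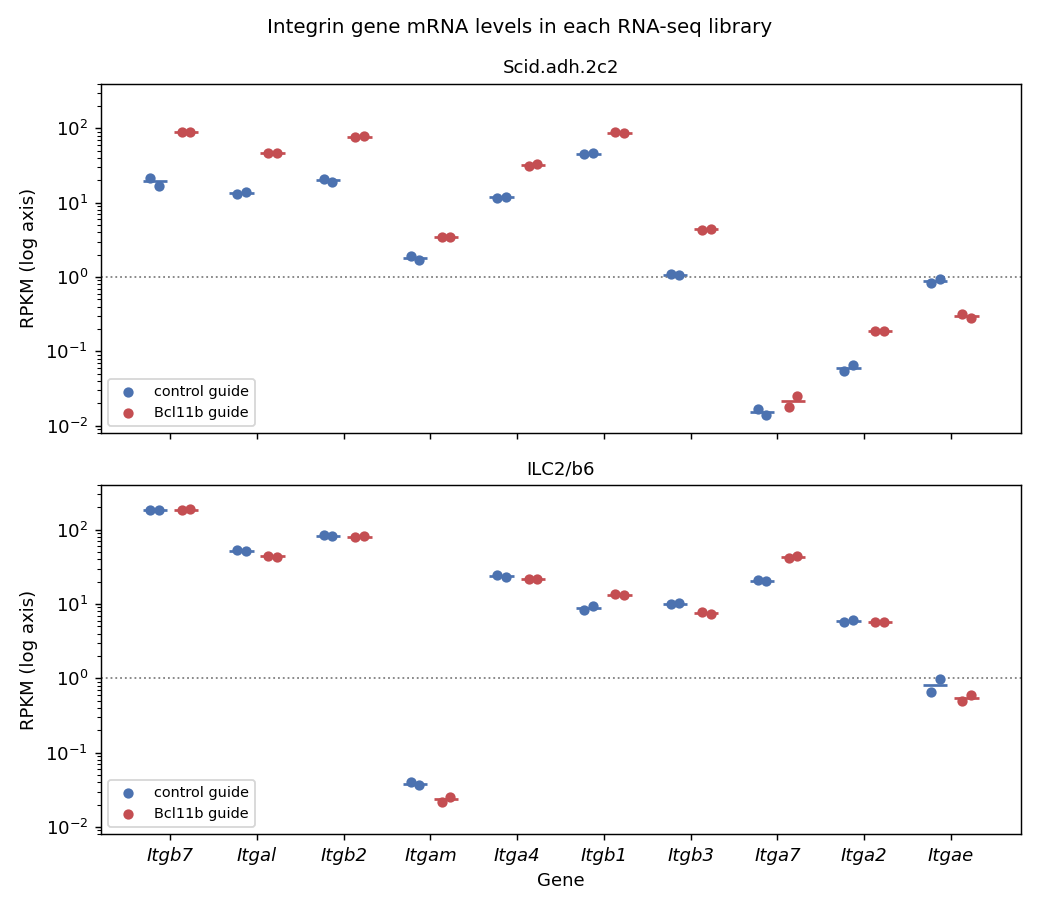
RPKM on a log axis for the 10 integrin genes in each library, with blue points for the 2 control guide libraries, red points for the 2 Bcl11b guide libraries, short lines for group means and a dotted line at 1 RPKM, separately for each line. In Scid.adh.2c2 (top) the red points lie above the blue ones for the 7 tested members, while in ILC2/b6 (bottom) most pairs are close and Itga7 is the member with the widest gap upwards.

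**Figure D2:**
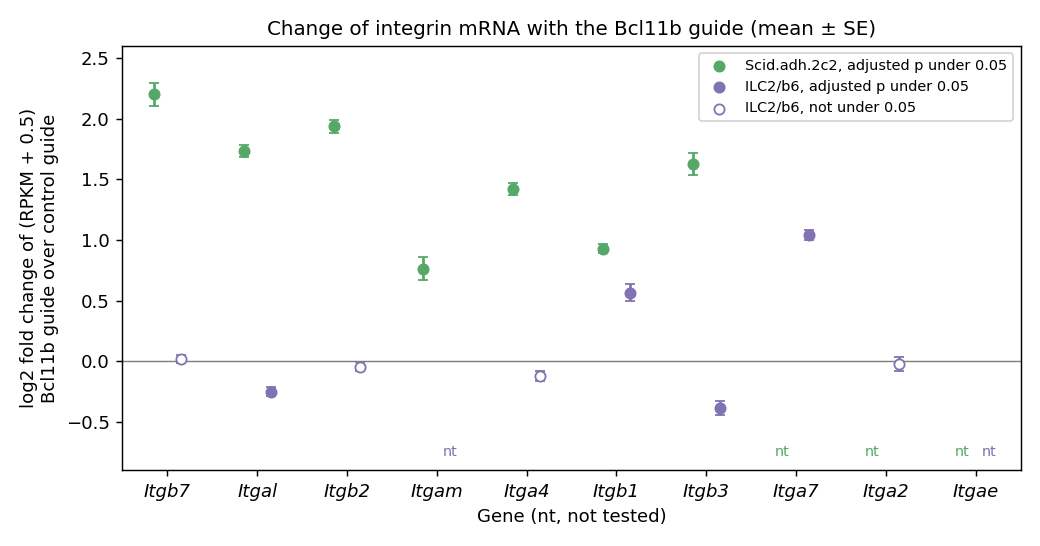
Log2 fold change of each integrin gene with the Bcl11b guide (points) with its standard error (bars) in Scid.adh.2c2 (green) and ILC2/b6 (purple), where filled points have adjusted p under 0.05 and nt marks members below the filter. The 7 green points run from 0.76 for Itgam to 2.20 for Itgb7, and the purple points run from -0.39 for Itgb3 to 1.04 for Itga7.

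The LFA-1 chains Itgal and Itgb2 rose together in Scid.adh.2c2. In mm9, the build of the files, Itgal spans chr7:134439774-134478651 and Itgb2 chr10:76993093-77028419. Itgal was 13.2 and 14.1 RPKM in controls and 46.5 and 46.5 with the guide, 3.40-fold higher by the means (1.73 ± 0.048, limma adjusted p = 2.47e-07). Itgb2, its partner chain, was 21.0 and 18.9 RPKM in controls and 77.1 and 77.9 with the guide (3.89-fold, 1.94 ± 0.054, limma adjusted p = 2.58e-07). For both genes every guide library lay above every control library. The ratio of Itgal to Itgb2 RPKM was 0.630 and 0.747 in controls and 0.603 and 0.597 with the guide. In ILC2/b6 the pair began high, and the alpha chain moved a little. Itgal was 52.7 and 51.9 RPKM in controls and 44.2 and 43.4 with the guide (-0.25 ± 0.036, limma adjusted p = 0.00499). Itgb2 was 83.7 and 82.4 RPKM in controls and 79.6 and 81.2 with the guide, and was not called (-0.05 ± 0.035, limma adjusted p = 0.416). The guide libraries of both genes lay below the controls, by a small step for Itgb2.

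Itgam (chr7:135206154-135262005, mm9), the alpha chain of Mac-1 that is typical of myeloid cells, was low in Scid.adh.2c2 and rose to a level that was still low. It was 1.94 and 1.67 RPKM in controls and 3.41 and 3.41 with the guide (1.89-fold, 0.76 ± 0.095, limma adjusted p = 0.000461). ILC2/b6 libraries had it at 0.040 and 0.037 RPKM in controls and 0.022 and 0.025 with the guide, from 4 to 7 reads per library. Of 12 myeloid markers, 1 was at 1 RPKM or more in the Scid.adh.2c2 controls and 2 with the guide, and their summed RPKM went from 1.501 and 1.321 to 5.66 and 4.723. Csf1r, Lyz2, Elane, Cebpa, S100a8, S100a9, Csf3r and Cd14 were under 0.1 RPKM in all 4 of those libraries. Spi1, which passed the filter only through the guide libraries, rose (2.78 ± 0.121, limma adjusted p = 1.94e-06). Adgre1 went from 0 and 0 RPKM to 0.380 and 0.355 and was not tested, and Cd68 was not called. The part of other cells in the rise of Itgam was not tested.

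Itgb7 (chr15:102046426-102062366) and Itga4 (chr2:79095583-79173271), the chains of the gut-homing integrin, rose in Scid.adh.2c2. Itgb7 had the largest fold change of the 10 genes, from 21.6 and 17.0 RPKM in controls to 89.8 and 90.0 with the guide (4.66-fold, 2.20 ± 0.097, limma adjusted p = 2.08e-06). Itga4 went from 11.5 and 12.0 RPKM to 31.6 and 33.0 (2.75-fold, 1.42 ± 0.051, limma adjusted p = 7.5e-07). The beta chain gained more than the alpha chain, so that the ratio of Itga4 to Itgb7 RPKM was 0.530 and 0.708 in controls and 0.352 and 0.366 with the guide. In ILC2/b6 neither was called. Itgb7 was 182 and 186 RPKM in controls and 185 and 188 with the guide, with overlapping libraries (0.02 ± 0.034, limma adjusted p = 0.773, and -0.02 after centring each library on its median). Itga4 was 24.3 and 23.4 RPKM in controls and 21.9 and 21.9 with the guide (-0.12 ± 0.042, limma adjusted p = 0.0979), and without control replicate 2 its adjusted p was 0.0496. Cerkl overlaps Itga4 on the opposite strand, and the library kit is not stated to keep strand. In Scid.adh.2c2 Cerkl was at 1.01 and 0.975 RPKM in controls and 2.56 and 2.62 with the guide, and in ILC2/b6 all 4 libraries lay between 2.25 and 2.47.

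Itgae (chr11:72904085-72960951), the alpha chain of intraepithelial lymphocytes, was under 1 RPKM in every library. In Scid.adh.2c2 it was 0.827 and 0.929 RPKM in controls and 0.321 and 0.280 with the guide, and in a fit with no filter it fell (-0.78, limma adjusted p = 0.00474). It was 0.666 and 0.977 RPKM in controls and 0.494 and 0.591 with the guide in ILC2/b6. Guide libraries lay below the controls in both lines, but with no filter the ILC2/b6 difference was not called (-0.33, limma adjusted p = 0.26). Gsg2 overlaps Itgae on the opposite strand and stood at 8.05 to 10.0 RPKM across the 8 libraries. Whether some reads were counted to the wrong one of these 2 genes was not tested.

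Itgb1 (chr8:131209554-131257479), the shared beta chain, rose in both lines from different levels. In Scid.adh.2c2 it went from 45.7 and 46.0 RPKM to 89.2 and 85.9 (1.91-fold, 0.93 ± 0.038, limma adjusted p = 1.5e-06). In ILC2/b6 it went from 8.36 and 9.54 RPKM to 13.8 and 13.1 (0.57 ± 0.068, limma adjusted p = 0.00252). All guide libraries lay above all controls in each line. The RPKM ratio of Itgb7 to Itgb1 was 0.473 and 0.370 in the Scid.adh.2c2 controls and 1.01 and 1.05 with the guide. In ILC2/b6 this ratio was 21.8 and 19.5 in controls and 13.4 and 14.3 with the guide. Itga4 relative to Itgb1 was 0.251 and 0.262 in the Scid.adh.2c2 controls and 0.354 and 0.384 with the guide, against 2.91 and 2.45, and then 1.59 and 1.66, in ILC2/b6.

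Itga7 (chr10:128370869-128395340), the laminin-binding chain, rose in ILC2/b6 and was nearly absent from Scid.adh.2c2. In ILC2/b6 it went from 20.9 and 20.4 RPKM to 42.3 and 43.7 (2.09-fold, 1.04 ± 0.041, limma adjusted p = 2.08e-05). In Scid.adh.2c2 it was 0.017 and 0.014 RPKM in controls and 0.018 and 0.025 with the guide, from 2 to 4 reads per library. Mettl7b, which overlaps it on the opposite strand, was at 0.306 to 0.701 RPKM in ILC2/b6. Of the marker lists, the summed RPKM of 11 ILC2 markers went in ILC2/b6 from 9323 and 9485 to 6918 and 7047. Of these, Il5, Il13 and Areg fell, Klrg1 rose and 7 were not called, where 6.21% of all tested genes fell and 8.32% rose. The summed RPKM of 7 stromal markers went in ILC2/b6 from 5.79 and 6.32 to 13.0 and 11.3. Dcn rose (1.00, limma adjusted p = 0.000661), and Col1a2, Col3a1, Pdgfrb and Lum were under 0.1 RPKM throughout. For 8 mast cell markers the sum went from 29.6 and 31.5 to 91.7 and 92.6, with 4 and then 5 at 1 RPKM or more. Tpsb2 (2.94, limma adjusted p = 8.49e-07), Cma1 (3.20, 9.33e-06) and Mcpt4 (0.96, 0.00332) rose. Kit and Hdc were not called, and Fcer1a, Ms4a2 and Cpa3 were under 0.1 RPKM. The part of these lists in the rise of Itga7 was not tested.

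Itga2 (chr13:115623289-115722308), the collagen-binding chain, was not called in ILC2/b6 and was low in Scid.adh.2c2. In ILC2/b6 it was 5.73 and 6.03 RPKM in controls and 5.80 and 5.75 with the guide, with overlapping libraries (-0.02 ± 0.058, limma adjusted p = 0.822). In Scid.adh.2c2 it went from 0.055 and 0.065 RPKM to 0.190 and 0.186, from 16 or 17 reads to 53 or 55, and in a fit with no filter it rose (0.30, limma adjusted p = 0.00454).

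Itgb3 (chr11:104469314-104531785), the beta chain of the vitronectin receptor, moved in opposite directions. In Scid.adh.2c2 it went from 1.11 and 1.05 RPKM to 4.28 and 4.47 (4.05-fold, 1.63 ± 0.088, limma adjusted p = 6.06e-06). In ILC2/b6 it went from 9.91 and 10.4 RPKM to 7.91 and 7.36 (-0.39 ± 0.058, limma adjusted p = 0.0059). Guide libraries lay wholly above the controls in the first line and wholly below them in the second.

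The difference between the lines was itself tested, as the guide effect in ILC2/b6 minus that in Scid.adh.2c2 over 8 libraries. The 6 members that passed the filter in both lines, Itgal, Itgb2, Itgb7, Itga4, Itgb1 and Itgb3, all differed in response, where 45.1% of 11609 genes did. Those 11609 include genes that did not pass the filter in both lines, so the 2 sets are not alike. The largest gaps were -2.18 for Itgb7 (limma adjusted p = 4.42e-06), -2.01 for Itgb3 (1e-06), -1.98 for Itgal (1.28e-07) and -1.98 for Itgb2 (2.81e-07). Itga4 differed by -1.54 (limma adjusted p = 5.7e-07) and Itgb1, which rose in both lines, by -0.36 (0.00898). Itgam, Itga7 and Itga2 entered this test only through the line where they are high, and the pseudocount holds their effect in the other line near 0. Their differences of -0.80 for Itgam (limma adjusted p = 4e-04), 1.03 for Itga7 (2.85e-05) and -0.32 for Itga2 (0.0178) therefore do not compare 2 measured responses. The call of Itga2 ended with a pseudocount of 1 (-0.19, 0.061), after centring on the median (-0.21, 0.0739), after quantile normalization (-0.14, 0.195), and without Scid.adh.2c2 Bcl11b guide replicate 1 (0.0591) or replicate 2 (0.0548).

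The scaling of the libraries set the direction of calls across all genes, but not those of the members. Centring each Scid.adh.2c2 library on its median shifted the median fold change over all genes by -0.13 (log2) and turned 3589 genes higher and 2319 lower into 2466 and 3934, and quantile normalization (-0.13) gave 2443 and 3918. In ILC2/b6 the split of 876 and 654 became 649 and 909 after centring and 686 and 665 after quantile normalization. The 7 members of Scid.adh.2c2 remained higher after centring, by 0.63 (Itgam), 0.79 (Itgb1), 1.29 (Itga4), 1.49 (Itgb3), 1.60 (Itgal), 1.80 (Itgb2) and 2.07 (Itgb7). The 4 members called in ILC2/b6 kept their direction and their call under both scalings. Guide and control libraries did not overlap for 80% of all tested genes in Scid.adh.2c2 and for 59.9% in ILC2/b6, beside 7 of 7 and 6 of 8 members.

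The order of mRNA levels also differed between the lines. The tables were normalised separately, so levels are set in order within a line and no test was made between lines. In the Scid.adh.2c2 controls Itgb1 led at 45.8 RPKM, followed by Itgb2 (19.9) and Itgb7 (19.3), which overlapped, and then Itgal, Itga4, Itgam, Itgb3, Itgae, Itga2 and Itga7. With the guide Itgb7 led at 89.9 RPKM, ahead of Itgb1 (87.6) and Itgb2 (77.5). In the ILC2/b6 controls Itgb7 led at 184 RPKM, ahead of Itgb2 (83.0), Itgal (52.3), Itga4 (23.9), Itga7 (20.6), Itgb3 (10.1), Itgb1 (8.95) and Itga2 (5.88), with Itgae and Itgam last. With the guide Itgal (43.8) and Itga7 (43.0) overlapped, and the other neighbours did not.

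Other genes of the integrin pathway were read from 4 lists. Of 16 other integrin subunits, 6 were tested in Scid.adh.2c2, where Itgad and Itgav rose, Itga9, Itga6 and Itgb6 fell and Itga2b was not called, with a median of -0.28, beside 35.1% of all tested genes that rose and 22.7% that fell. Itgad, a further partner of Itgb2 that passed the filter only through the guide libraries, went from 0.180 and 0.205 RPKM to 1.33 and 1.52 (1.48 ± 0.111, limma adjusted p = 3.39e-05). Itga6, which binds laminin with Itgb1, went from 6.78 and 7.67 RPKM to 3.58 and 3.72 (-0.90 ± 0.084, limma adjusted p = 0.000108). Itgav, the usual partner of Itgb3, went from 3.25 and 3.46 RPKM to 5.43 and 5.38 (0.62 ± 0.077, limma adjusted p = 0.00047). Itga9, which passed only through the controls, fell by 1.06 log2 units (limma adjusted p = 0.000104) and Itgb6, a receptor chain for latent TGF-beta, by 0.79 (0.000426). Itga2b, at 1.17 and 1.33 RPKM in controls and 1.55 and 1.53 with the guide, was not called (0.22, limma adjusted p = 0.096). In ILC2/b6, 5 of the 16 were tested, where 8.32% of all genes rose and 6.21% fell. Itgb5 rose from 19.1 and 18.8 RPKM to 24.4 and 22.9 (0.31 ± 0.047, limma adjusted p = 0.00595), Itga1 fell from 2.52 and 2.48 RPKM to 1.85 and 1.73 (-0.39 ± 0.081, 0.0213), and Itga6 (0.15), Itgav (0.07) and Itgb8 (0.07) were not called.

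Of 46 genes for integrin activation and adaptors, 34 were tested in Scid.adh.2c2, where 20 rose, 8 fell and 6 were not called (median 0.22), beside the 35.1% of all tested genes that rose and 22.7% that fell. Rap1b, the small GTPase that switches integrins on, went from 48.5 and 48.8 RPKM to 137 and 136 (1.48 ± 0.035, limma adjusted p = 1.49e-07). Ptk2b, a focal adhesion family kinase that passed only through the guide libraries, went from 0.195 and 0.217 RPKM to 5.40 and 5.26 (25.9-fold, 3.05 ± 0.093, limma adjusted p = 3.51e-07). Dok2, an adaptor, went from 11.5 and 9.84 RPKM to 35.9 and 36.4 (1.72 ± 0.073, limma adjusted p = 1.75e-06). Rapgef3, an activator of Rap GTPases that responds to cyclic AMP, moved the other way, from 8.72 and 8.17 RPKM to 1.92 and 2.10 (-1.83 ± 0.083, limma adjusted p = 2.36e-06). In ILC2/b6, 36 were tested, of which 6 rose, 5 fell and 25 were not called (median 0.01), beside 8.32% and 6.21% of all tested genes. Bcar1, a scaffold of focal adhesions, went from 2.83 and 2.86 RPKM to 5.47 and 5.49 (0.84 ± 0.063, limma adjusted p = 0.000363). The other named genes rose less: Vcl, which passed only through the guide libraries, by 0.44 (limma adjusted p = 0.039), Apbb1ip by 0.36 (0.00264) and Rhoh by 0.28 (0.0289).

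Of 30 ligands and matrix genes, 1 was tested in Scid.adh.2c2 and not called, and 8 were tested in ILC2/b6 with 2 that rose (8.32% of all genes), Emilin1 (0.41, limma adjusted p = 0.028) and Spp1 (0.17, 0.0447), the latter the gene of osteopontin. Of 13 membrane proteins that associate with integrins, 7 were tested in Scid.adh.2c2, with 5 that rose and 1 that fell, where 35.1% and 22.7% of all genes did. Cd226, a receptor that associates with LFA-1, went from 2.02 and 2.03 RPKM to 41.5 and 42.1 (20.6-fold, 4.07 ± 0.057, limma adjusted p = 2.33e-08), and Cd53, a tetraspanin, from 1.02 and 1.02 RPKM to 13.0 and 13.1 (3.16 ± 0.075, 1.49e-07). Cd151 rose by 0.32 log2 units (limma adjusted p = 0.00267), and Bsg fell by 0.23 (0.0433), a call that ended under some alternatives, with an adjusted p of up to 0.164. In ILC2/b6, 10 were tested, with 4 that rose and 1 that fell (8.32% and 6.21% of all genes). Cd63, a tetraspanin, went from 78.9 and 77.6 RPKM to 192 and 185 (2.41-fold, 1.26 ± 0.036, limma adjusted p = 9.33e-06), Cd81 rose by 0.51 (0.00252), Cd47 by 0.40 (0.000786), and Slc3a2 fell by 0.23 (0.0194).

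For each member with a range of at least 1 log2 unit over the 4 group means, the 3 genes with the highest Pearson r across 8 libraries were found among 11608 genes. The 8 points form 4 groups of 2, so r mostly compares 4 means and is given as a description. The nearest genes were Ly6c2 (0.9965), Bin2 and Traf3ip3 for Itgal, Il2rb (0.9996), Sh2d3c and H2-M3 for Itgb2, and 4930503B20Rik (0.9998), Elavl4 and Rtp4 for Itgam. For Itgb7 they were H2-T23 (0.9997), Gimap1 and Slc44a2, for Itga4 Mcl1 (0.9975), Apol9b and Pde4c, and for Itgb1 Rnf139 (0.9985), Pnrc2 and Tmem143. Itga7 was nearest to Nes (0.9999), Slc41a2 and Cd63, Itga2 to Chst12 (0.9999), Fam129a and Osm, and Itgb3 to Herpud1 (0.9978), Mapk6 and Fermt3.

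In the ChIP-seq lists, each member had peaks of at least 1 factor in each line, and the factors were spread over members unevenly. The share of all genes with a peak of any factor was not counted, and it can only be at or above the single-factor shares below. Each list was made from 2 libraries together, so peaks have no replicates to test, and a peak belongs to the gene that the list names for it. The score is that of the authors and ranks peaks within 1 list. The Bcl11b list of Scid.adh.2c2 held 19 member peaks on 8 members, where 37.8% of 24475 listed genes had at least 1 peak. GATA3 had 35 peaks on 10 members (54.1% of genes), Runx1 13 on 6 (33.0%) and Runx3 26 on 9 (42.1%). In ILC2/b6 Bcl11b had 35 peaks on 9 members (39.2%), GATA3 44 on 9 (50.2%), Runx1 47 on 8 (41.4%) and Runx3 67 on 9 (57.8%). No correction was made for gene length or for the distance to neighbouring genes. In ILC2/b6 Bcl11b marked Itgb3 with 11 peaks and Itga2 with 8, where 1.08% of listed genes had 8 or more, and Itgb2 with 5 and Itga4 with 4, where 5.3% had 4 or more. In Scid.adh.2c2 Itga4 had 4 Bcl11b peaks, where 3.3% of genes had 4 or more, Itgam and Itgb7 had 3 each, and Itga7 and Itgae had none.

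**Figure D3:**
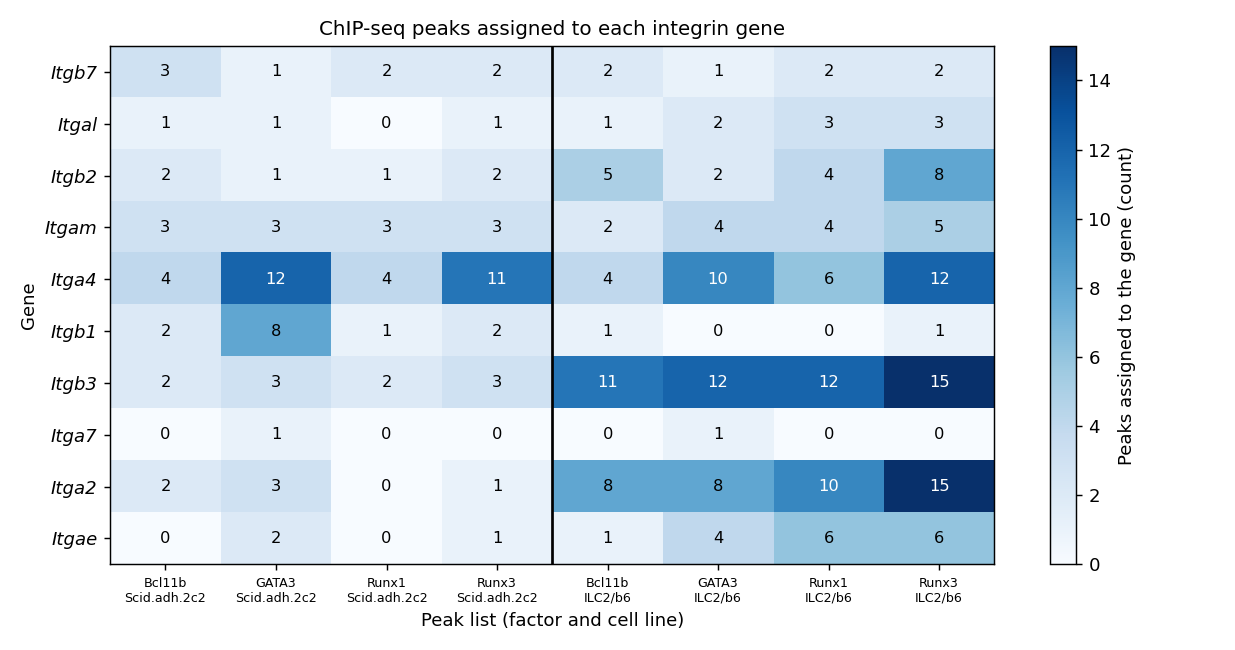
Number of ChIP-seq peaks assigned to each integrin gene (rows) in each factor and line (columns, Scid.adh.2c2 left of the black line and ILC2/b6 right), with darker cells for more peaks. Itgb3 and Itga2 have 15 Runx3 peaks each in ILC2/b6 against 3 and 1 in Scid.adh.2c2, and Itga7 has 1 GATA3 peak in each line and no other peak.

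The share of member Bcl11b peaks that overlapped GATA3 was above that of all Bcl11b peaks in both lines, as a description with no test. In ILC2/b6, 54.3% of the 35 member peaks overlapped a GATA3 peak by at least 1 base, beside 35.0% of all Bcl11b peaks, 74.3% overlapped Runx1 (71.0%), 91.4% Runx3 (85.0%) and 45.7% all 3 (29.0%). In Scid.adh.2c2, 31.6% of the 19 overlapped GATA3 (19.3%), 47.4% Runx1 (61.2%), 68.4% Runx3 (73.5%) and 15.8% all 3 (12.8%). Of the 35 member peaks in ILC2/b6, Itgb3 held 11 and Itga2 held 8. Within 1 kb of a start lay 20.0% of member Bcl11b peaks in ILC2/b6 (33.6% of all) and 36.8% in Scid.adh.2c2 (43.8%). Few GATA3 peaks lay there (6.6% and 4.3% of all). The part of these features in the overlap with GATA3 was not tested. Between the lines, 9 Bcl11b peaks were shared, which is 47.4% of the Scid.adh.2c2 member peaks (43.1% of all) and 25.7% of the ILC2/b6 ones (35.6% of all). Itgb2, Itgb7 and Itga2 held 2 of them each and Itga4, Itgb1 and Itgb3 1 each.

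Itgal and Itgb2 had Bcl11b at or near their starts. The Itgal start carried a Bcl11b peak in Scid.adh.2c2 at chr7:134439638-134439874 (mm9) with a score of 15.2, in the lowest 1.0 percent of its list, beside Runx3 (19.7). In ILC2/b6 Runx1 (42.7) and Runx3 (83.1) lay at the start, and Bcl11b (47.5) lay 8.1 kb before it at chr7:134431582-134431836 with the 3 other factors. The Itgb2 start carried Bcl11b in both lines (28.4 in Scid.adh.2c2 at chr10:76992928-76993164 and 31.8 in ILC2/b6), as did intron 1 at 0.8 kb (15.2 and 29.9). In ILC2/b6 intron 1 of Itgb2 also held the strongest Bcl11b peak of the gene, at 109.5 (above 97.6% of its list) at chr10:77003382-77003636, with Runx1 and Runx3.

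Itgam had different Bcl11b sites in each line. The strongest in ILC2/b6, where the gene is nearly silent, scored 143.3 (98.9 percentile) at chr7:135194287-135194541, 11.7 kb before the start, with Runx1 and Runx3. The strongest in Scid.adh.2c2 scored 53.5 at chr7:135202192-135202428, 3.8 kb before the start, and others lay 17.6 kb (42.3) and 21.1 kb (25.6) inside the gene, all 3 with Runx1 and Runx3. None of these was in the other line's list.

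Itgb7 held a site of all 4 factors in both lines, in intron 2 at 6.5 kb. Bcl11b scored 40.7 in Scid.adh.2c2 (chr15:102055733-102055969) and 67.2 in ILC2/b6 (chr15:102055718-102055972), with GATA3 at 185.9 and 126.5, Runx1 at 19.6 and 62.2 and Runx3 at 31.3 and 218.4. Intron 1 held Bcl11b, Runx1 and Runx3 in both lines at 0.8 kb, with Bcl11b at 24.8 and 50.4. Itga4 had its strongest Bcl11b peak at its start in each line, 83.0 in Scid.adh.2c2 (chr2:79095552-79095788, 95.5 percentile) and 75.0 in ILC2/b6 (chr2:79095624-79095878, 92.7 percentile), with Runx3 but neither GATA3 nor Runx1. The rest of its sites lay as far as -180.3 kb from the start, with all 4 factors at 2 of 20 sites in Scid.adh.2c2 and 2 of 19 in ILC2/b6. Itgae had Bcl11b in ILC2/b6 at intron 1 (31.5, chr11:72909086-72909340), with Runx3 (243.3), Runx1 (80.2) and GATA3 (62.3), and none in Scid.adh.2c2.

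**Figure D4:**
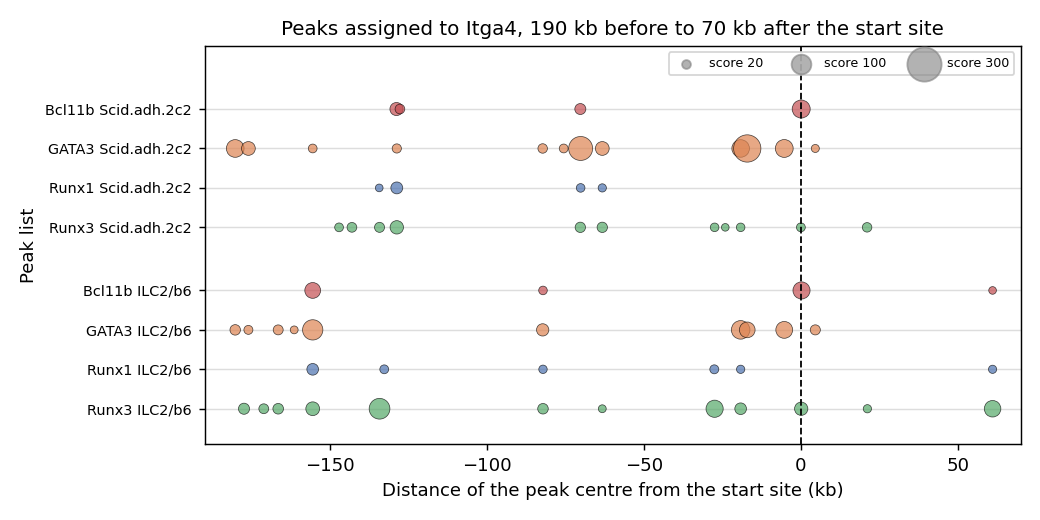
Peaks assigned to Itga4 by distance of the peak centre from the start site in kb (dashed line at 0), 1 row per factor and line, with circle area proportional to the authors' score. The largest Bcl11b circle of each line sits at the start (83.0 in Scid.adh.2c2 and 75.0 in ILC2/b6), and GATA3 and the Runx factors are spread out to -180.3 kb.

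Itgb1 had a Bcl11b peak at its start in both lines, scoring 47.6 in Scid.adh.2c2 (chr8:131209403-131209639, with Runx1 and Runx3) and 18.3 in ILC2/b6 (chr8:131209463-131209717, with Runx3). It had 8 GATA3 peaks in Scid.adh.2c2 and none in ILC2/b6. Itga7 had no Bcl11b or Runx peak, and 1 GATA3 peak of 25.7 in each line, in intron 1 at 3.4 kb. Itga2 had its strongest Bcl11b peak in intron 2 at 36.0 kb in both lines, 64.8 in ILC2/b6 (chr13:115686136-115686390) and 22.4 in Scid.adh.2c2 (chr13:115686175-115686411), with GATA3 in both and the Runx factors in ILC2/b6 alone. Its start carried a Bcl11b peak in ILC2/b6 with a score of 15.9 (chr13:115722149-115722403, 5.8 percentile). In ILC2/b6 5 of its 17 sites held all 4 factors, where a site joins peaks that overlap in a chain. At the site chr13:115704821-115705391 the GATA3 peak overlapped Bcl11b but neither Runx1 nor Runx3.

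Itgb3 had its Bcl11b peaks mostly in ILC2/b6, with 11 there and 2 in Scid.adh.2c2. The strongest in ILC2/b6 scored 106.3 in intron 2 (chr11:104491596-104491850), with Runx1 at 210.8, Runx3 at 258.4 and GATA3 at 87.1, and 6 of 22 sites held all 4 factors. Intron 12 at 53.2 kb held the strongest GATA3 peak of the gene in both lines, 370.3 in Scid.adh.2c2 and 269.0 in ILC2/b6. In Scid.adh.2c2 the strongest Bcl11b peak (38.5, chr11:104522853-104523089) lay 53.7 kb after the start, and a Bcl11b peak in exon 1 was in both lines (33.1 and 35.4) with no other factor. No GATA3 peak of a member lay within 1 kb of a start in either line, and 4.3% of all GATA3 peaks in Scid.adh.2c2 and 6.6% in ILC2/b6 did.

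**Figure D5:**
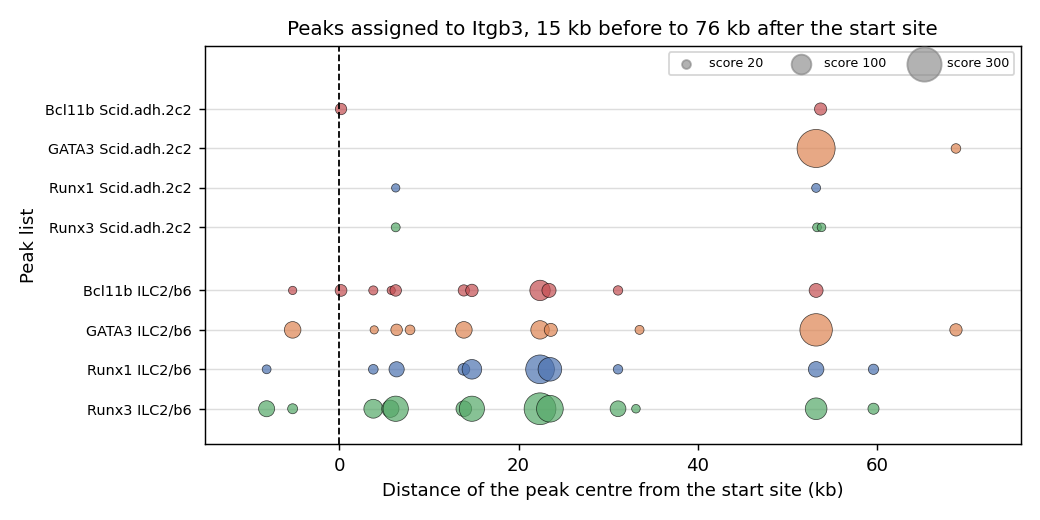
Peaks assigned to Itgb3 by distance of the peak centre from the start site in kb (dashed line at 0), 1 row per factor and line, with circle area proportional to the authors' score. Bcl11b has 11 circles in ILC2/b6 and 2 in Scid.adh.2c2, and the GATA3 circle at 53.2 kb is the largest of each line's GATA3 row (370.3 and 269.0).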

How the data were processed

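RNA libraries were 8 (2 lines, 2 guides, 2 replicates) and ChIP-seq peaks came in 8 lists of 4 factors in 2 lines. The authors deposited RPKM per gene in 1 table per line, and HOMER peak lists on mm9 with a peak score, filtered by reproducibility from 2 libraries, per the file headers. The submitters' processing notes name Bowtie 1.1.1, STAR 2.4.0, RSEM 1.2.25, HOMER, Trimmomatic and edgeR 3.6.8, with builds mm9 and NCBIM37. Depth, 34.7 to 43.7 M reads, was recovered from the steps of RPKM values, of which 100% were whole within 0.1 read. Low genes are limited by their reads: 3 reads on a transcript of 2 kb are 0.034 to 0.043 RPKM.

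The log2 values of RPKM + 0.5 were fitted with limma 3.58.1 (R 4.3.3, mean-variance trend), two-sided, for genes that reached 1 RPKM in 2 or more libraries, within each line and, for the difference of effects, over 8 libraries. The code was tested on simulated data. Peaks were called overlapping at 1 base or more. Peaks of a gene that overlapped in a chain, over all 8 lists, were joined into 1 site. All 10 members are named. Of the other lists, up to 4 called genes per line with the largest change, the other tested integrin subunits, and 3 genes of like pattern per member are named. For peaks, the strongest Bcl11b peak per member and line and those within 1 kb of a start are named, and peaks of the other factors beside them were added after their values were seen. The members and gene lists were chosen with earlier results of these data known. Alternatives were other pseudocounts, filters, scalings, a joint fit, a replicate block, each library left out, and other overlap and score limits. Same-numbered libraries of a line are not stated to share a culture. Input libraries were not used here. The result of 1 marker list is not reported here.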

Additional observations from a re-analysis of the deposited data

Results flagged for a closer look

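The guide effect in ILC2/b6 differed from that in Scid.adh.2c2 in the limma interaction test for members and pathway genes, 45.1% of all genes tested being called in it. Itgam, Itga7, Itga2, Itga1, Itga9, Itgad, Itgb6, Rapgef3, Bcar1, Spp1 and Cd63 passed the filter of 1 line only, so their differences do not compare 2 measured responses. The log2 differences (ILC2/b6 minus Scid.adh.2c2) were -1.985 for Itgal, -1.982 for Itgb2, -0.803 for Itgam, -2.183 for Itgb7, -1.542 for Itga4, -0.361 for Itgb1, 1.026 for Itga7, -0.321 for Itga2 and -2.012 for Itgb3. Among other integrin subunits they were -0.382 for Itga1, 1.046 for Itga6, 1.074 for Itga9, -1.488 for Itgad, -0.543 for Itgav and 0.812 for Itgb6. Among activation and adaptor genes they were -1.662 for Rap1b, 1.903 for Rapgef3, -0.336 for Apbb1ip, -3.129 for Ptk2b, 0.957 for Bcar1, -1.782 for Dok2 and 0.593 for Rhoh. For ligands and membrane partners they were -0.505 for Spp1, 0.253 for Cd47, -3.062 for Cd53, 1.183 for Cd63, -3.782 for Cd226 and 0.346 for Bsg. Each of these genes had an adjusted p under 0.05 in this test, the highest being 0.0286 for Bsg.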

How the results depend on the processing

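Of 81 alternatives to counts and shares, 76 stayed close and 5 moved. Close was within 1.5 times for a count, and within a binomial interval of the main value for a share of peaks. That interval takes member peaks as independent and measures no spread between replicates. Of 312 alternatives for the members' single values, 304 kept direction and call, 5 lost the call, 1 gained it and 2 changed sign. The count of members called was 7 in Scid.adh.2c2 (5 under a filter of 5 RPKM, which leaves Itgam and Itgb3 out, and 9 with no filter), 4 in ILC2/b6 (4 to 5 with a library left out) and 9 for the difference (8 to 9), among them the 3 that passed the filter of 1 line only. With the replicate block 7, 4 and 9 members were called. The same-number deviations correlated at 0.037 and 0.106, and the block moved ILC2/b6 calls over all genes from 876 and 654 to 1300 and 958. Other pathway genes called in ILC2/b6, 20 in the report, were 8 with no filter, 13 after quantile normalization and 8 to 23 with a library left out (8 without either guide library). The share of Scid.adh.2c2 member Bcl11b peaks with another factor fell from 78.9% to 50% when every list was cut at its median score. That cut left 10 member Bcl11b peaks and also removed peaks of the other factors. Values that changed sign were not called: Itgb7 in ILC2/b6 (-0.018 when centred), Itga2b in Scid.adh.2c2 (-0.064, quantile), and, with a library left out, Itga2 (-0.057 to 0.010), Itgav (-0.012 to 0.157) and Itgb8 (-0.057 to 0.191, and -0.042 without control replicate 1) in ILC2/b6. Calls that at least 1 alternative ended, with the highest limma adjusted p, were Emilin1 (0.13), Itga1 (0.111), Rhoh (0.148), Slc3a2 (0.0868), Spp1 (0.208), Vcl (0.237) in ILC2/b6 and Bsg (0.164) and Cd151 (0.0577) in Scid.adh.2c2. For these the cause was not tested. Depth limits Itga7 in Scid.adh.2c2 (2 to 4 reads) and Itgam in ILC2/b6 (4 to 7 reads).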
